A study of Mus musculus with 9 samples.

Results

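The spinal cord transcripts of 34 myelin and mature oligodendrocyte genes were followed in 9 RNA libraries from C57BL/6 mice, out of 27179 genes in the count table. They were chosen by name as a list of myelin proteins, myelin lipid enzymes and other oligodendrocyte genes, matched by symbol to the Entrez gene identifiers of the table, and all 34 were found and passed the filter on low counts. There were 3 groups of 3 biological replicates, with 1 library each. The first had experimental autoimmune encephalomyelitis (EAE) and an oral treatment with EHP-101 at 20 mg/kg (EAE+EHP-101), the second had EAE, and the last was Control. No genetic change is labelled in any group, and EHP-101 is known here only by its code name. EAE is a model in which an immune response to myelin damages the brain and spinal cord. The sources used here do not give the antigen, the day of sampling, the length of treatment, the age or sex of the mice, or what the Control and untreated EAE mice received. The design asks what the compound changes in the diseased cord.

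Oligodendrocytes wrap axons of the central nervous system in myelin, a stack of membrane that is rich in galactolipids and held together by a small set of abundant proteins. Myelin is the tissue under attack in EAE, where immune cells enter the cord and sheaths are lost, and where surviving or newly formed oligodendrocytes can make new sheaths. Levels are given below as CPM, the read count of a gene scaled to a common library size. Levels of different genes are compared only as RPKM, which also divides by gene length in kilobases. Fold changes are log2 values with their standard error (SE), and adjusted p-values come from edgeR's quasi-likelihood test over all 16749 genes tested. A gene was called where its adjusted p was under 0.05. Whole cord was sequenced, so fewer oligodendrocytes and less RNA per oligodendrocyte cannot be told apart.

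The 34 genes were sorted by role. The structural proteins held 11 genes (Mbp, Mog, Mag, Mobp, Cnp, Cldn11, Mal, Pllp, Opalin, Ermn and Tspan2). The lipid enzymes held 6 (Ugt8a, Gal3st1, Fa2h, Aspa, Elovl1 and Cers2). A further 4 act on phospholipids, carry lipid or make creatine (Enpp2, Enpp6, Apod and Gamt), 3 act at the contact of myelin and axon (Nfasc, Cntn2 and Hapln2) and 2 are receptors (Gpr37 and Lpar1). The cytoplasmic and cytoskeletal class held 5 (Tppp, Sirt2, Plekhb1, Ppp1r14a and Bcas1), 2 were other membrane proteins (Tmem125 and Ninj2) and 1 was a transcription factor (Nkx6-2).

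RefSeq promoters of assembly GRCm38.p6, each 250 bases before to 50 after a start site, were found for 30 of the 34 genes, in 41 windows. Fa2h, Mbp, Bcas1 and Enpp2 had no entry. The windows were searched on both strands for CTGGCAC, a core of MYRF, the factor that drives myelin genes. They were also searched for ACAAAG, a core of SOX family factors such as the oligodendrocyte factor SOX10, for a second SOX core, ACAAT, and for CANNTG, the E-box. The MYRF core CTGGCAC stood in 8 of the 41 windows (19.5%), against 5.01% of all 32851 promoters of the table. The SOX core ACAAAG stood in 24.4% of the windows, against 18.7% of all promoters. The shorter SOX core had 24.4% against 31.0%, and the E-box 75.6% against 72.3%. Matches to different motifs can overlap, and so can windows of the same gene, as those of Mag do. The 8 windows with CTGGCAC include overlapping Mag windows that hold the same copy, which is thus counted more than once. The 250 bases before the start are shown for 3 genes that rose in at least 1 comparison and hold CTGGCAC (Mag at the most upstream of its 3 starts, chr7:30914923-30915172, minus strand, Gamt at chr10:80261013-80261262, minus strand, Hapln2 at chr3:88027512-88027761, minus strand), and for Mobp (chr9:120149492-120149741, plus strand), which was lower in EAE and whose window holds 6 copies of ACAAAG. Capitals mark the MYRF and SOX letters given above, on either strand. A match describes the letters and says nothing of binding in these cords.
Mag: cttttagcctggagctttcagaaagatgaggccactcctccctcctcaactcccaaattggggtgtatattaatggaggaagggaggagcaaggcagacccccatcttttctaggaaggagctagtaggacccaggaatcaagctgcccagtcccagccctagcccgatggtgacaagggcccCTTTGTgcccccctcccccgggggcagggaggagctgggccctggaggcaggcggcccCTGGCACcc
Gamt: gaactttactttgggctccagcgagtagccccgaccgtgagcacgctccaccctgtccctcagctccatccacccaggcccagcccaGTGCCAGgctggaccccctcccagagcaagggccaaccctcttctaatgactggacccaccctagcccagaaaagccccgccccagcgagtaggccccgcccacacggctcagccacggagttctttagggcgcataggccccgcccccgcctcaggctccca
Hapln2: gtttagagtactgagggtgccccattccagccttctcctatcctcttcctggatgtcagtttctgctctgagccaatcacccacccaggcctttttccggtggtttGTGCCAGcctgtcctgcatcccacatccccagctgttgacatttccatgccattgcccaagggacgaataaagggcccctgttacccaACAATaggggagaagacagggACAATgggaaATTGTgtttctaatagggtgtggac
Mobp: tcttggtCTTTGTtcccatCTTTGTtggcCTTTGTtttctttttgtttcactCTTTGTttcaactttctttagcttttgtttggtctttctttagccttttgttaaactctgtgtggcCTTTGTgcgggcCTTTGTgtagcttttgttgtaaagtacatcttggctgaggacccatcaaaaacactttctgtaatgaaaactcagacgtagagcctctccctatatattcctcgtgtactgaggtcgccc

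Libraries held 30448507 to 32661741 counts, and no 2 replicates agreed within counting noise (chi-square per degree of freedom 6.36 to 26.1). The 34 genes together took 3.3%, 3.45% and 3.35% of the counts in EAE+EHP-101 libraries, 3.09%, 3.3% and 2.91% in EAE libraries, and 2.73%, 2.8% and 3.46% in Control libraries. Control replicate 3 thus carried as large a share as the highest treated library, and it stood apart from the other 2 Controls in these genes. It was the highest Control in 30 of the 34 genes. It exceeded the mean of the other 2 by up to 1.51-fold (Enpp6), while Nfasc, Cntn2 and Hapln2 were lower in it, at 0.852, 0.873 and 0.846 of that mean. The median gene spanned 1.07-fold from the lowest to the highest EAE+EHP-101 library, 1.14-fold over EAE libraries and 1.27-fold over Control libraries. Counts are therefore given below also without Control replicate 3. Leukocyte and microglia markers (10 genes, none at 0 in every library) summed to 275, 535 and 639 CPM in EAE+EHP-101 cords, to between 1484 and 1780 CPM in EAE cords and to between 183 and 225 CPM in Control cords. Their part in the myelin results was not tested. Whole cord markers of neurons summed to 7591 to 9750 CPM over the 9 libraries and those of astrocytes to 7821 to 11896 CPM. Schwann cells of the nerve roots also make Mbp, Mag, Mal and Pllp, and their markers are given with the other lists.

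**Figure D1:**
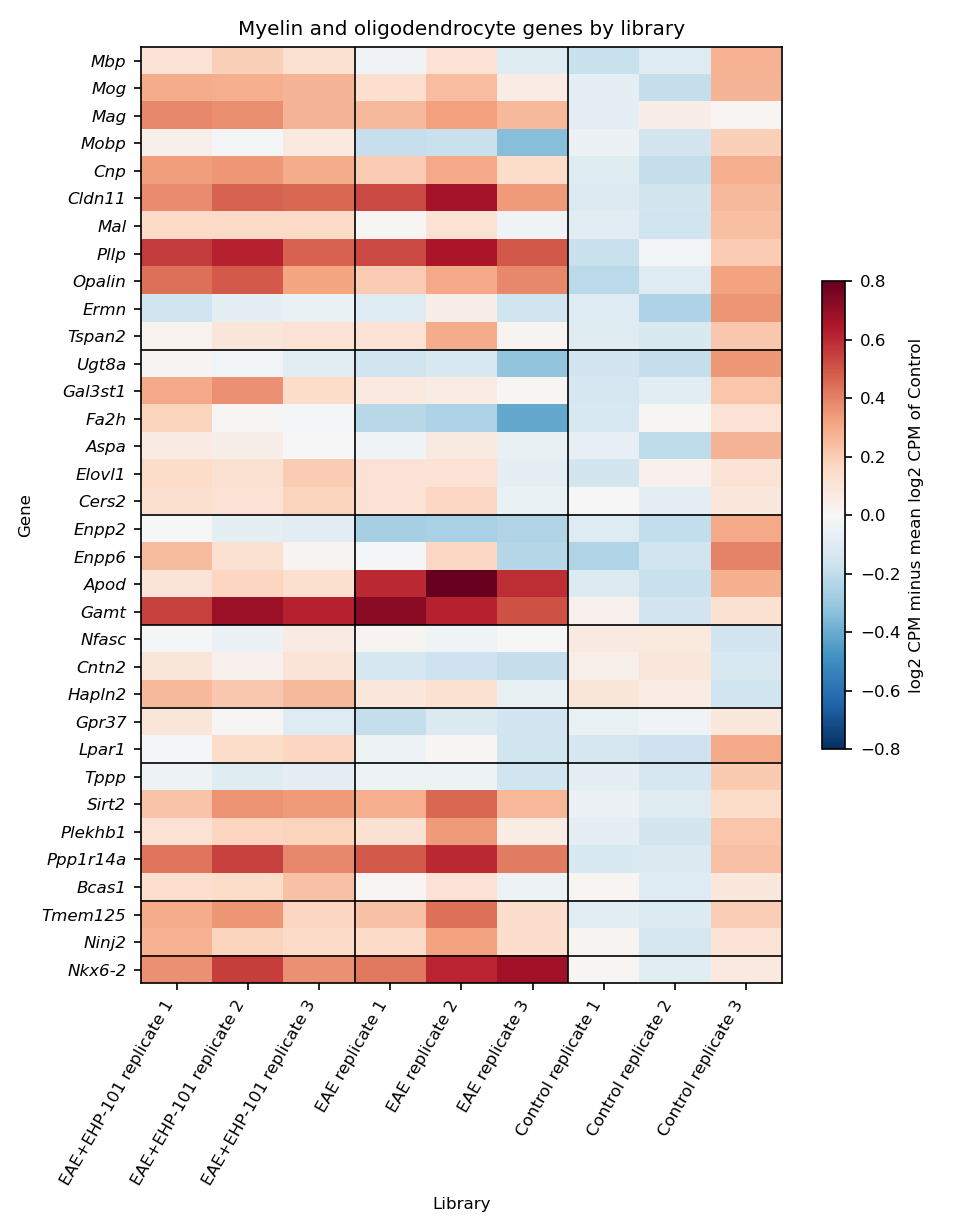
Log2 CPM of each of the 34 genes (rows) in each of the 9 libraries (columns), as the difference from the gene's mean log2 CPM over the Control libraries. Horizontal lines separate the classes in the order of the text; Control replicate 3 is above that mean in 31 genes, and Pllp, Gamt and Nkx6-2 are above it in all EAE and EAE+EHP-101 libraries.

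Per length, Mbp, which encodes myelin basic protein, was the most abundant of the 34 in every group. It reached 2699 ± 80.2 RPKM in EAE+EHP-101 cords, 2448 ± 186 RPKM in EAE cords and 2473 ± 432 RPKM in Control cords (SD, n = 3 each). Plekhb1, a membrane-bound protein with a pleckstrin homology domain, came second, at 686 ± 17.3 RPKM in EAE+EHP-101, 696 ± 72.9 RPKM in EAE and 619.6 ± 86.2 RPKM in Control cords. Cnp, the cyclic nucleotide phosphodiesterase of non-compact myelin, and Mag, the adhesion protein of the membrane next to the axon, followed. In Control cords Cnp averaged 446 ± 82.5 and Mag 392 ± 17.7 RPKM, a gap within the spread of Cnp. The lipid enzymes ranked lower, from Ugt8a at 159 ± 34.5 RPKM down to Gal3st1 at 23.0 ± 3.15 RPKM in Control. Ninj2, an adhesion molecule, was the lowest of the 34 in each group, at 8.28 RPKM in EAE+EHP-101, 8.31 RPKM in EAE and 7.21 RPKM in Control cords. In the order of levels, Apod held place 6 in EAE and place 10 in Control, and Mobp place 9 in EAE and place 6 in Control.

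EAE was first set against Control. Of the structural proteins Pllp, Cldn11 and Mag rose by 1.22- to 1.47-fold and Mobp fell, while Mbp, Mog and Cnp did not pass the test. Among the lipid enzymes Fa2h fell and no member rose. The largest rise was that of Apod, 1.63-fold. Of the 34 genes 8 rose and 2 fell, 29.4% against 37.0% of all 16749 genes tested. By direction these were 23.5% higher against 20.2% of all genes, and 5.88% lower against 16.7%. The median log2 fold change over the 34 was 0.049, against 0.0055 over all genes tested. Without Control replicate 3 14 rose and 2 fell, which is 47.1% of the members against 41.9% of 16932 genes.

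Among the structural proteins, Mbp had 17738, 18749 and 17918 CPM in EAE+EHP-101 cords, 16118, 17825 and 15384 CPM in EAE cords and 14575, 15329 and 19941 CPM in Control cords. Control replicate 3 lay above all 3 EAE libraries and the other 2 Controls below all 3, so the groups overlapped (log2 -0.015, SE 0.11, adjusted p = 0.927). Mog, a surface protein of the outermost myelin layer, had 407, 406 and 401 CPM in EAE+EHP-101 cords, 364, 394 and 346 CPM in EAE cords and 313, 290.0 and 401 CPM in Control cords and did not pass in EAE (log2 0.14, SE 0.10, adjusted p = 0.326). All 3 EAE libraries stood above the other 2 Controls, and without Control replicate 3 it was called (adjusted p = 0.0118). Cnp had 1492, 1505 and 1453 CPM in EAE+EHP-101 cords, 1359.9, 1458 and 1307 CPM in EAE cords and 1104, 1034 and 1447 CPM in Control cords. Its Control replicate 3 lay below EAE replicate 2 and above the other EAE libraries, and the other 2 Controls lay below all 3 (log2 0.20, SE 0.11, adjusted p = 0.161, and adjusted p = 0.00294 without Control replicate 3). Opalin and Tspan2 also passed when Control replicate 3 was left out, at adjusted p = 0.00166 and 0.0388.

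Pllp (plasmolipin, gene 67801, chromosome 8 from 94674895 to 94696242), a proteolipid of the same family as Mal, had 227, 235 and 213 CPM in EAE+EHP-101 cords, 222, 241 and 217 CPM in EAE cords and 136, 151 and 177 CPM in Control cords. No Control library reached the lowest EAE or treated library. It rose by 1.47-fold in EAE (log2 0.55, SE 0.09, adjusted p = 0.000844). Cldn11 (gene 18417, chromosome 3 from 31149920 to 31164326), the claudin that seals the layers of central myelin, had 631, 672 and 666 CPM in EAE+EHP-101 cords, 701, 771 and 614 CPM in EAE cords and 449, 438 and 581 CPM in Control cords. The lowest EAE library exceeded the highest Control by a small margin, and the gene rose by 1.42-fold (log2 0.51, SE 0.11, adjusted p = 0.00426). Mag (gene 17136, chromosome 7 from 30899183 to 30914832) had 1243, 1228 and 1147 CPM in EAE+EHP-101 cords, 1137, 1193 and 1136 CPM in EAE cords and 904, 988 and 962 CPM in Control cords, again without overlap, and rose by 1.22-fold (log2 0.28, SE 0.061, adjusted p = 0.00421). Mag was the structural gene on which Control replicate 3 differed least from the other 2, at 1.02 of their mean. These 3 calls held with each library left out in turn (adjusted p up to 0.0308 for Cldn11 and 0.0332 for Mag).

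Mobp (gene 17433, chromosome 9 from 120149742 to 120176091), a small basic protein of compact myelin, went the other way. It had 1149, 1155 and 1030.2 CPM in EAE cords and 1266, 1181 and 1489 CPM in Control cords, every EAE library below every Control library, and fell (log2 -0.24, SE 0.086, adjusted p = 0.0471). This call was close to the threshold and ended without Control replicate 3, EAE replicate 1 or 3, or EAE+EHP-101 replicate 2 or 3 (adjusted p up to 0.116). Mal, Ermn and Tspan2 were at log2 0.023, -0.09 and 0.14, and Opalin, a glycoprotein of paranodal loops, at 0.28 (adjusted p = 0.0832), none called.

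Fa2h (gene 338521, chromosome 8 from 111345138 to 111393821), which hydroxylates the fatty acids of myelin galactolipids, was the lipid enzyme that changed. Its levels were 189, 186 and 167 CPM in EAE cords and 202, 222 and 239 CPM in Control cords, and the groups did not overlap. It fell by 1.23-fold (log2 -0.29, SE 0.08, adjusted p = 0.0145) and was called with each library left out (adjusted p up to 0.0418). Ugt8a, which makes galactocerebroside, had 573, 554 and 528 CPM in EAE+EHP-101 cords, 503, 518 and 453 CPM in EAE cords and 506, 494 and 715 CPM in Control cords. Its Control replicate 3 stood far above the others and the gene was not called (log2 -0.22, SE 0.12, adjusted p = 0.185). Aspa, which frees acetate from N-acetylaspartate for lipid synthesis, had 107, 106 and 102 CPM in EAE+EHP-101 cords, 99.8, 107 and 97.8 CPM in EAE cords and 97.5, 88.6 and 123 CPM in Control cords (log2 -0.02, SE 0.10, adjusted p = 0.892). Gal3st1, which makes sulfatide, Elovl1, which lengthens very long fatty acids, and Cers2, which joins them into ceramide, lay between log2 0.043 and 0.077, none called.

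Set side by side, the median log2 fold change in EAE against Control was 0.14 over the 11 structural genes (-0.24 to 0.55; 3 higher, 1 lower) and 0.012 over the 6 lipid enzymes (-0.29 to 0.077; 0 higher, 1 lower). In each library the mean of the structural genes was also set against that of the lipid enzymes, both as log2 CPM relative to Control. The difference was 0.0928, 0.161 and 0.156 in EAE+EHP-101 cords, 0.17, 0.257 and 0.248 in EAE cords and -0.00903, -0.0405 and 0.0495 in Control cords. The ranges of the 3 groups did not overlap, with EAE highest, Control lowest and EAE+EHP-101 between them. EAE+EHP-101 and EAE were only just apart, at 0.161 against 0.17, a gap smaller than the range within either group. These values per library were taken as counted, with the length trend left in. Control replicate 3 was high in both classes and near the other Controls in this difference. With the trend of each library with gene length taken out, the medians for EAE against Control were 0.18 for structural genes and -0.10 for lipid enzymes, with 3 higher and 0 lower among structural genes and 0 higher and 1 lower among the enzymes. No test is attached to these class values, since the members were chosen with results of these data known.

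**Figure D2:**
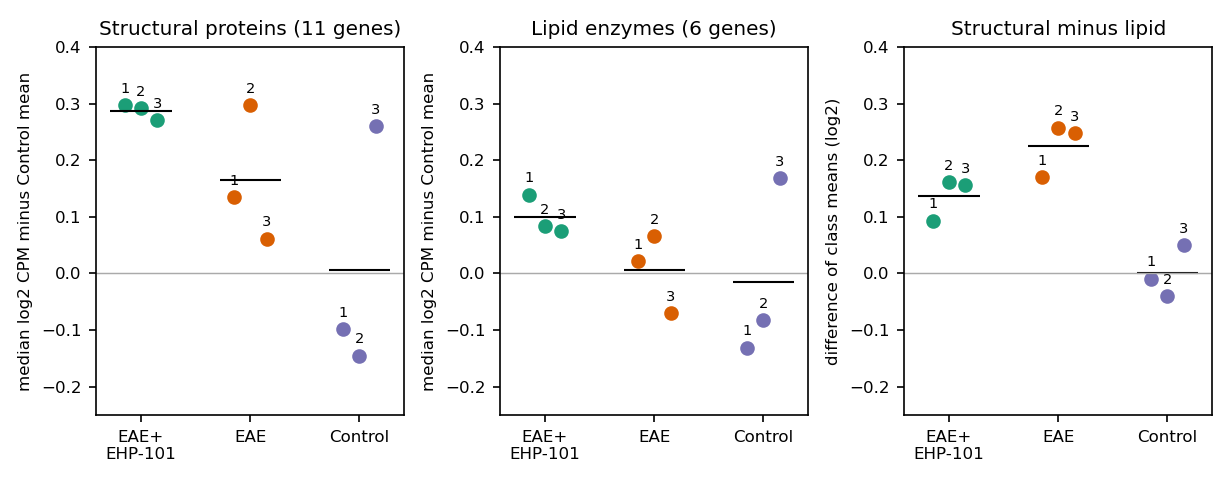
Median log2 CPM relative to the Control mean over the 11 structural genes (left) and the 6 lipid enzymes (middle), and the difference of the class means (right), for each library (points, numbered by replicate) with the group mean (bar). Control replicate 3 is high in both classes, and the difference separates EAE, 0.17 to 0.257, from Control, -0.0405 to 0.0495.

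Outside these classes 5 genes rose in EAE. Apod (gene 11815, chromosome 16 from 31296192 to 31314596), the lipid carrier apolipoprotein D, is made by oligodendrocytes and also by astrocytes and fibroblasts. It had 424, 443 and 429.9 CPM in EAE+EHP-101 cords, 597, 754 and 594 CPM in EAE cords and 365, 349 and 481 CPM in Control cords, all EAE libraries above all others, and rose most of the 34 (log2 0.70, SE 0.12, adjusted p = 0.00123). Fibroblast markers rose with it in EAE, 5 of 5 genes, summing to 51 to 76 CPM in EAE+EHP-101 cords, 164 to 174 CPM in EAE cords and 44 to 52 CPM in Control cords, with none at 0 in every library. In EAE+EHP-101 against EAE all 5 fell. Of 8 astrocyte markers 3 rose in EAE and 1 fell in EAE+EHP-101 against EAE. The part of these cells in the values of Apod was not tested.

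Gamt (gene 14431, chromosome 10 from 80258151 to 80260968), which makes creatine from guanidinoacetate, was low, with 20.6, 22.8 and 21.6 CPM in EAE+EHP-101 cords, 23.3, 21.6 and 20.1 CPM in EAE cords and 14.4, 12.7 and 15.3 CPM in Control cords. Its Control libraries were all below its EAE libraries, and it rose by 1.53-fold (log2 0.61, SE 0.089, adjusted p = 0.000443). Nkx6-2 (gene 14912, chromosome 7 from 139579376 to 139582797), a homeobox factor of oligodendrocytes, had 35.3, 40.2 and 35.4 CPM in EAE+EHP-101 cords, 36.8, 41.9 and 43.8 CPM in EAE cords and 27.6, 25.9 and 29.0 CPM in Control cords. It too rose without overlap, by 1.49-fold (log2 0.57, SE 0.083, adjusted p = 0.000442). Ppp1r14a, an inhibitor of myosin phosphatase, had 64.2, 69.7 and 62.2 CPM in EAE+EHP-101 cords, 67.0, 72.0 and 63.5 CPM in EAE cords and 43.8, 44.1 and 56.2 CPM in Control cords and rose by 1.41-fold (log2 0.49, SE 0.10, adjusted p = 0.00239). Sirt2, a deacetylase of tubulin, had 277, 304 and 300.5 CPM in EAE+EHP-101 cords, 290.3, 325 and 284 CPM in EAE cords and 229, 221 and 263 CPM in Control cords and rose by 1.26-fold (log2 0.34, SE 0.079, adjusted p = 0.00683). The Sirt2 call ended without EAE replicate 2 (adjusted p = 0.0537).

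The remaining 12 genes outside the structural and lipid classes did not pass in EAE against Control. Enpp6, a choline phosphodiesterase high in newly formed oligodendrocytes, had 65.4, 59.6 and 55.6 CPM in EAE+EHP-101 cords, 54.3, 61.6 and 46.8 CPM in EAE cords and 46.4, 49.1 and 72.2 CPM in Control cords and the widest spread within each group (log2 -0.044, SE 0.15, adjusted p = 0.845). Enpp2, the secreted enzyme autotaxin, had 716, 718 and 729 CPM in EAE cords and 801, 749 and 1062 CPM in Control cords (log2 -0.27, SE 0.11, adjusted p = 0.0651). All its EAE libraries lay below all its Control libraries, and it was called lower without Control replicate 1 or 2 (adjusted p = 0.0389 and 0.0152). Cntn2, an adhesion molecule of the juxtaparanode, was at log2 -0.17, SE 0.064 and Gpr37, a receptor of maturing oligodendrocytes, at log2 -0.15, SE 0.065, both with every EAE library below every Control library. Nfasc (neurofascin of the paranode and, as another isoform, of the neuronal node) was at log2 -0.009, SE 0.07, and Hapln2, a matrix protein of the node, at log2 0.047, SE 0.075. Lpar1, Tppp, Plekhb1, Bcas1, Tmem125 and Ninj2 lay between log2 -0.086 and 0.27. Without Control replicate 3, Plekhb1 and Tmem125 passed as higher and Cntn2 as lower. The sign of Cntn2 changed when the length trend was removed, as given below.

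**Figure D3:**
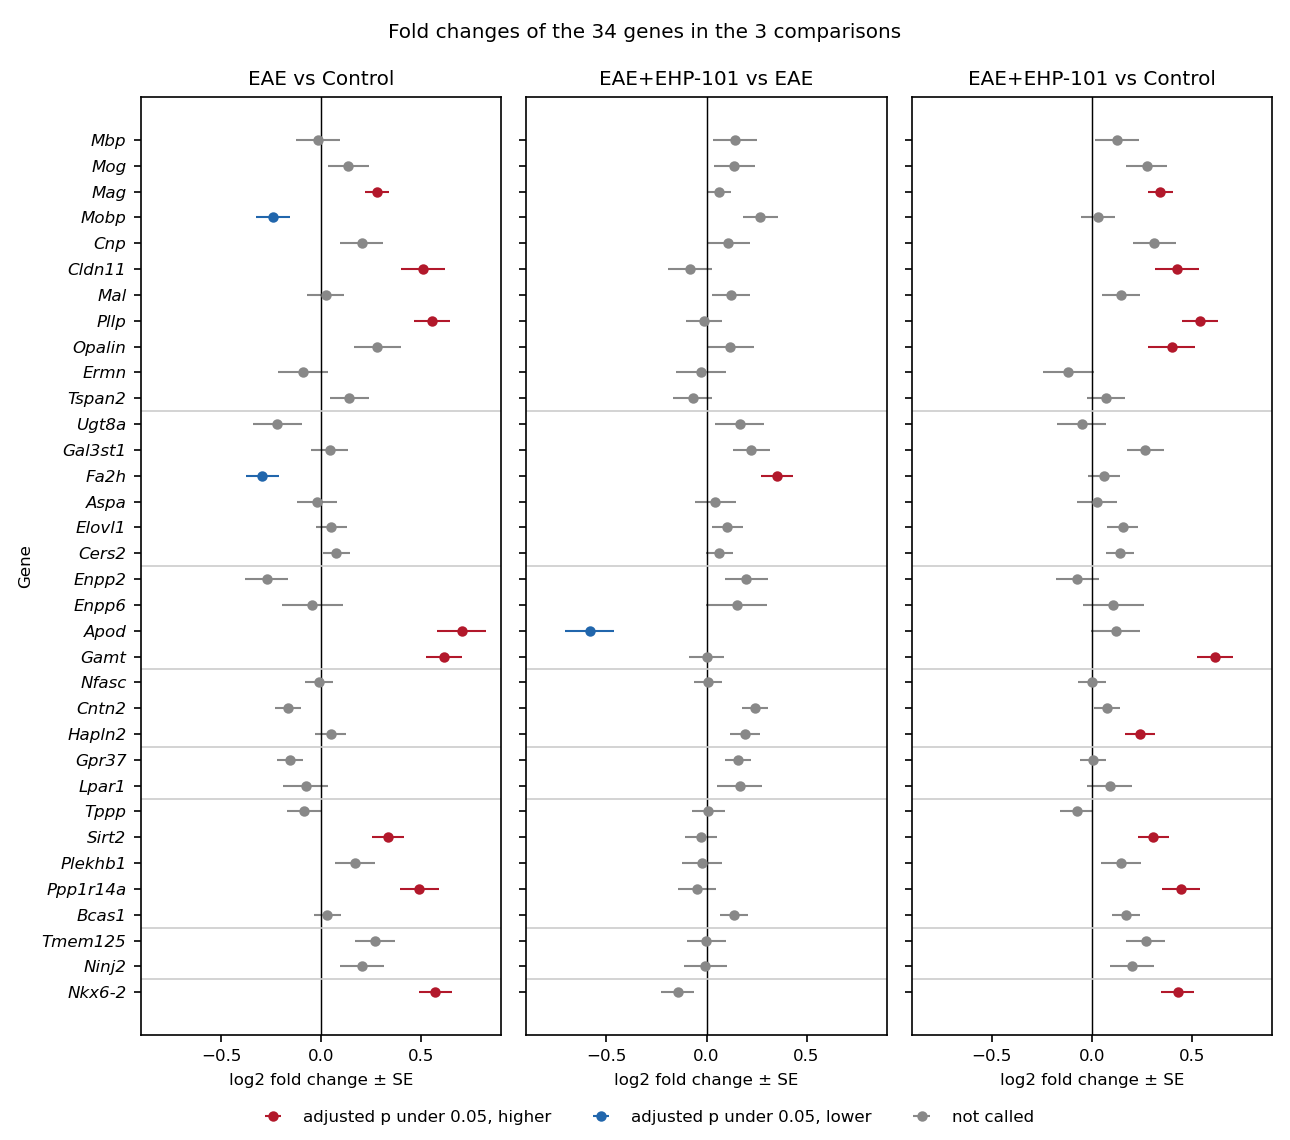
Log2 fold change of each of the 34 genes with its SE (bars) in the 3 comparisons, with called genes in colour and classes separated by lines. Of the 34, 8 were called higher and 2 lower in EAE against Control, 1 and 1 in EAE+EHP-101 against EAE, and 9 and 0 in EAE+EHP-101 against Control.

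Gene length ran with the groups. Across 16749 genes, a library's deviation from the mean correlated with length at a Spearman rho of -0.335 to -0.03 in EAE+EHP-101, -0.327 to -0.259 in EAE and 0.244 to 0.41 in Control libraries. Across the 34 genes, fold change in EAE against Control correlated with length at rho = -0.719, against -0.398 over all genes tested, as a description over genes that share these libraries. The 8 genes that rose were 531 to 2427 bases long and the 2 that fell 2492 and 4440 bases. With the trend of each library with length removed, that correlation was -0.145, and 8 genes were higher and 1 lower. These were 26.5% of the members, in a setting where 4246 of the 16749 genes tested were called. Pllp, Cldn11, Mag, Apod, Gamt, Nkx6-2 and Sirt2 were again called higher and Fa2h lower (log2 -0.33, adjusted p = 0.0106). Ppp1r14a, the shortest of the 34, was no longer called (log2 0.13, adjusted p = 0.163), nor was Mobp (log2 -0.14, adjusted p = 0.291). Nfasc, the longest, became called higher (log2 0.32, adjusted p = 0.00306), where its own levels were 687, 661 and 676 CPM in EAE cords and 713, 716 and 609 CPM in Control cords and overlapped. Cntn2, of 9535 bases, changed sign, from log2 -0.17 as counted to log2 0.14 with the trend removed (adjusted p = 0.0985), and was called in neither. Mbp was at log2 0.19, adjusted p = 0.282 with the trend removed.

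**Figure D4:**
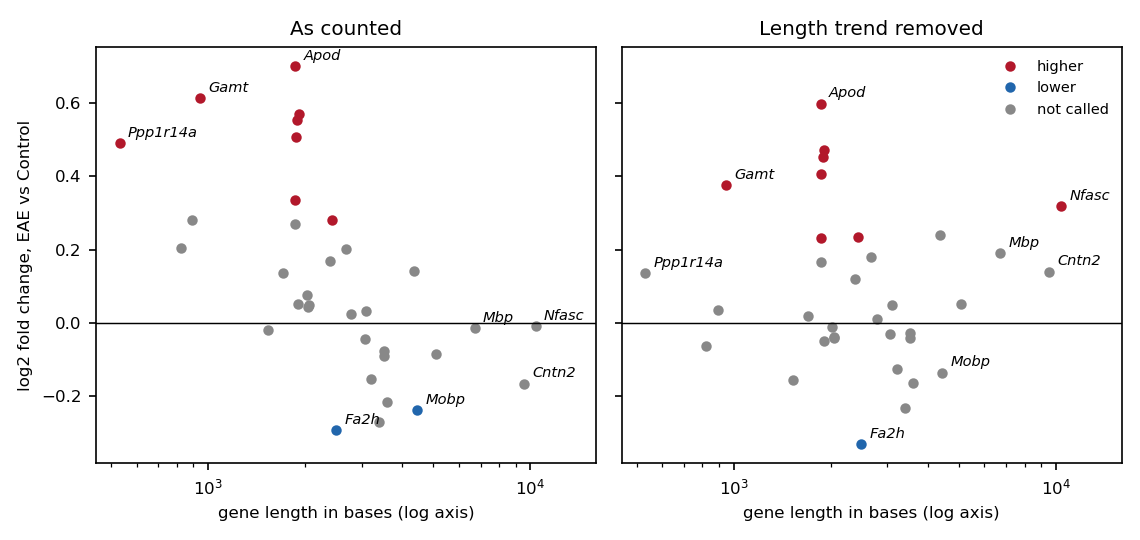
Log2 fold change in EAE against Control (vertical) against gene length in bases (horizontal, log axis) for the 34 genes, as counted (left) and with the length trend of each library removed (right). Shorter genes lie higher on the left (rho = -0.719); on the right rho is -0.145, and called genes are coloured in both.

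Treated mice were next set against untreated EAE mice. A pair of genes changed, in opposite directions: Fa2h rose and Apod fell. Of the structural genes 0 of 11 were called, with a median log2 fold change of 0.11, and the lipid enzymes had 1 of 6 higher and a median of 0.14. The called members, 2 of 34, made 5.88% against 5.24% of all genes tested, where 0.430% were higher and 4.81% lower. All 6 lipid enzymes had positive fold changes, the smallest that of Aspa (log2 0.045, SE 0.10), but 5 of the 6 were not called. Of all 34 members 23 had positive fold changes, with a median of log2 0.085 against -0.0011 over all genes tested.

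Fa2h had 249.6, 222 and 219 CPM in EAE+EHP-101 cords and 189, 186 and 167 CPM in EAE cords, without overlap, and rose by 1.28-fold (log2 0.35, SE 0.08, adjusted p = 0.027). Apod had 424, 443 and 429.9 CPM in EAE+EHP-101 cords and 597, 754 and 594 CPM in EAE cords, also without overlap, and fell (log2 -0.58, SE 0.12, adjusted p = 0.0173). Both calls ended when single libraries were left out. That of Fa2h ended without any 1 EAE library and without EAE+EHP-101 replicate 1 or 2 (adjusted p up to 0.0995), and that of Apod without EAE replicate 2 or EAE+EHP-101 replicate 1 or 2 (adjusted p up to 0.0875). In the treated cords Fa2h stood at 230.4 ± 16.7 CPM against 221 ± 18.6 in Control, and Apod at 432 ± 9.71 against 398 ± 71.7 (SD, n = 3 each). Neither passed against Control (log2 0.059, SE 0.08, adjusted p = 0.641 for Fa2h, and log2 0.12, SE 0.12, adjusted p = 0.526 for Apod). This comparison and that of EAE with Control share the EAE libraries.

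Other members were not called. Mobp, lower in EAE, had 1344, 1296 and 1380.2 CPM in EAE+EHP-101 cords and 1149, 1155 and 1030.2 CPM in EAE cords, every treated library above every EAE library, and was not called (log2 0.27, SE 0.086, adjusted p = 0.113). Cntn2 had 525, 503 and 526 CPM in EAE+EHP-101 cords and 446, 438 and 430.5 CPM in EAE cords, again without overlap, and just missed the threshold (log2 0.24, SE 0.065, adjusted p = 0.0551). With the length trend removed Cntn2 was at log2 0.16, adjusted p = 0.182. Gal3st1 was at log2 0.22, SE 0.091 and Hapln2 at log2 0.19, SE 0.075. Mobp, Gal3st1, Enpp2 and Cntn2 passed without Control replicate 3, which is in neither group of this comparison but is in the fit, and 6 members in all were then called, 17.6% against 6.91% of all genes. Called members numbered 1 (2.94%) without EAE replicate 1 or 3, where 2.93% and 4.63% of all genes were called. They numbered 0 without EAE replicate 2 or EAE+EHP-101 replicate 1 or 2, where 2.19%, 3.4% and 3.12% of all genes were called, and 3 (8.82% against 4.21%) without Control replicate 2. Mbp was at log2 0.14, SE 0.11, Mog at log2 0.14, SE 0.10, Cnp at log2 0.11, SE 0.11 and Mag at log2 0.062, SE 0.061, none called. Pllp and Gamt, both higher in EAE, were at log2 -0.012 and 0.0016.

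**Figure D5:**
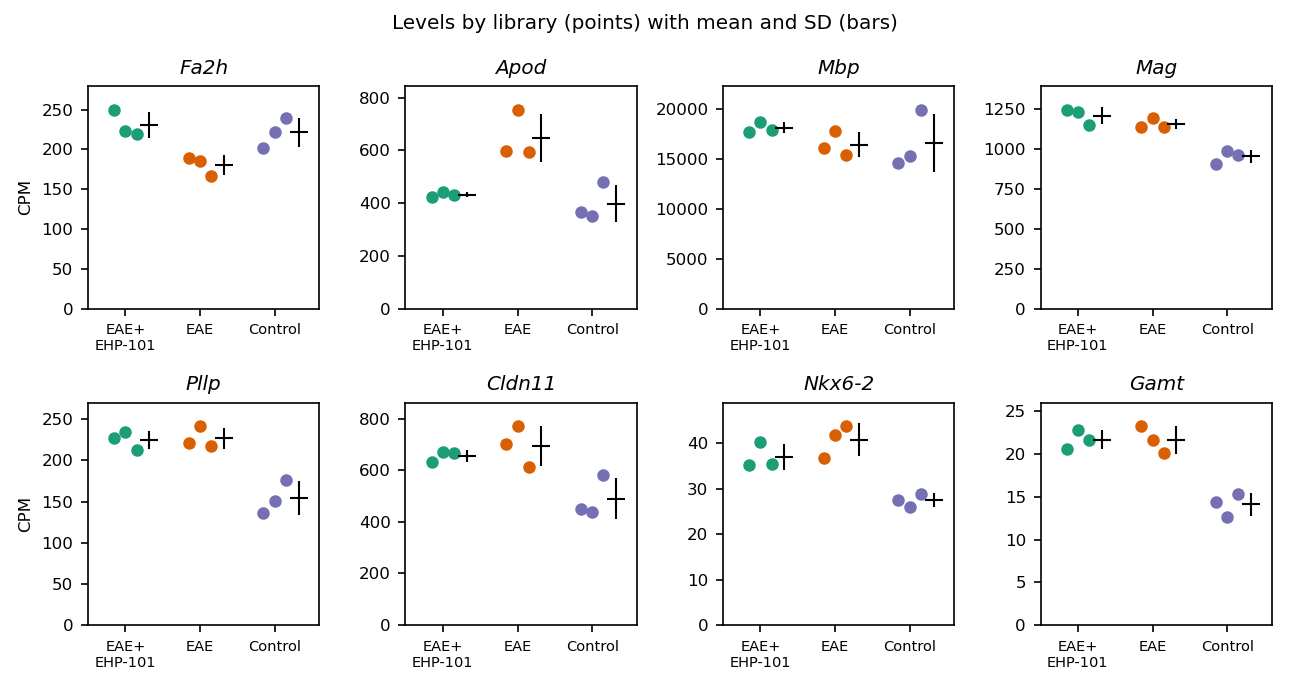
CPM of 8 genes in each library (points) with the group mean and SD (bars). Fa2h is lowest and Apod highest in EAE, while Mag, Pllp, Cldn11, Nkx6-2 and Gamt are higher in both EAE+EHP-101 and EAE than in Control, and Mbp overlaps between the groups.

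Treated mice were last set against Control. Of the 34 genes 9 rose, none fell and 25 were not called, and 29 of the 34 fold changes were positive. The called share was 26.5% against 19.8% of all genes tested, where 9.96% were higher and 9.82% lower. The median over the 34 was log2 0.15, against 0.015 over all genes. Structural genes had 4 of 11 higher (median 0.27) and lipid enzymes 0 of 6 (median 0.10). The count was 3 without EAE+EHP-101 replicate 2 (8.82% of the members against 3.71% of all genes) and 5 without replicate 3 (14.7% against 6.0%). It was 6 without Control replicate 1 (17.6% against 14.1%), 4 without Control replicate 2 (11.8% against 11.4%) and 15 without Control replicate 3 (44.1% against 22.1%).

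Gamt (log2 0.62, SE 0.089, adjusted p = 0.00432), Pllp (log2 0.54, SE 0.09, adjusted p = 0.00563) and Mag (log2 0.34, SE 0.061, adjusted p = 0.00639) rose and were called with each library left out. Nkx6-2 (log2 0.43, SE 0.083, adjusted p = 0.00838), Ppp1r14a (log2 0.44, SE 0.10, adjusted p = 0.012), Cldn11 (log2 0.42, SE 0.11, adjusted p = 0.0227) and Sirt2 (log2 0.31, SE 0.079, adjusted p = 0.0224) also rose. Each of these 4 lost its call without EAE+EHP-101 replicate 2, Ppp1r14a, Cldn11 and Sirt2 also without Control replicate 2, and Cldn11 and Sirt2 also without Control replicate 1 or EAE+EHP-101 replicate 3. The 2 others were not called in EAE. Opalin had 59.7, 61.7 and 54.6 CPM in EAE+EHP-101 cords, 50.6, 54.3 and 57.3 CPM in EAE cords and 37.8, 40.8 and 54.8 CPM in Control cords, with Control replicate 3 just above the lowest EAE+EHP-101 library (log2 0.40, SE 0.12, adjusted p = 0.037). Hapln2 had 186, 181 and 187 CPM in EAE+EHP-101 cords, 165, 170.1 and 149.8 CPM in EAE cords and 167, 163 and 139.6 CPM in Control cords, with all EAE+EHP-101 libraries above all Control libraries (log2 0.24, SE 0.075, adjusted p = 0.0446). Each of these 2 calls ended in 7 of the 9 fits that left out 1 library. With the length trend removed the members called were Mag, Pllp, Gamt, Nkx6-2, Nfasc and Cntn2, all higher, while Cldn11, Opalin, Hapln2, Sirt2 and Ppp1r14a were not called. Those called were 17.6% of the members, in a setting where 1553 of the 16749 genes tested were called. Mbp (log2 0.13, SE 0.11), Mog (log2 0.27, SE 0.10) and Cnp (log2 0.31, SE 0.11) were not called, and passed without Control replicate 3.

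Other genes of the same cells and pathways were read from lists. Their counts stand beside the shares of all 16749 genes tested. These were 37.0% called in EAE against Control, with 20.2% higher and 16.7% lower. They were 5.24% in EAE+EHP-101 against EAE (0.430% higher, 4.81% lower) and 19.8% in EAE+EHP-101 against Control (9.96% higher, 9.82% lower). With the length trend removed 4246, 887 and 1553 genes were called in these comparisons. Of 20 other oligodendrocyte genes, 7 rose and 2 fell in EAE against Control, and 3 and 1 with the length trend removed. Qdpr, a reductase of tetrahydrobiopterin, rose (log2 0.39, SE 0.066), and Gjc3, a connexin of oligodendrocytes, fell (log2 -0.32, SE 0.069). Myrf and Olig2, transcription factors of the lineage, were at log2 -0.058 and 0.025, not called. In treated against EAE mice 1 of the 20 was called, Carns1, which makes carnosine (log2 0.31, SE 0.075, adjusted p = 0.0346), and Gjc3 was at log2 0.26, SE 0.069, adjusted p = 0.0557. In treated against Control mice 6 of the 20 rose and none fell, and 4 rose with the length trend removed.

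Of 26 other genes of sphingolipid and fatty acid synthesis that were tested, 10 fell and 1 rose in EAE, with a median of log2 -0.13, led by Elovl6, an elongase (log2 -0.53, SE 0.061), and Scd1, a desaturase (log2 -0.57, SE 0.092). With the length trend removed 6 fell and 2 rose, and Acaca went to log2 -0.0061, adjusted p = 0.949. None of the 26 was called in treated against EAE mice, and 6 fell and none rose in treated against Control mice, where 3 fell with the length trend removed. A list of 10 lysosomal genes had 10 of 10 higher in EAE (median log2 0.42). It holds enzymes that break down sphingolipids of myelin and other membranes, the activator proteins Psap and Gm2a, and Naglu. Hexa, a subunit of hexosaminidase, rose 2.23-fold. Naglu, which acts on heparan sulfate and not on a myelin lipid, rose 2.47-fold. Galc, which degrades galactocerebroside, was at log2 0.25, SE 0.066, and Arsa, which degrades sulfatide, at log2 0.32, SE 0.058. In treated against EAE mice 6 of the 10 fell, while Galc (log2 -0.16, SE 0.065, adjusted p = 0.228) and Arsa (log2 -0.056, SE 0.058, adjusted p = 0.698) did not pass, and in treated against Control mice 5 of the 10 rose, and 3 with the length trend removed. Leukocyte and microglia markers moved with this list, 10 of 10 higher in EAE and 8 of 10 lower in treated than in EAE mice, and their part was not tested.

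Markers of neighbouring cell stages and types were read beside these, and their counts stand beside the same shares of all genes tested. Of 10 genes of progenitors and committed oligodendrocytes, 2 rose and 1, Ptprz1, fell in EAE. With the length trend removed 4 rose and 0 fell, the median was log2 0.25 in place of 0.017, and Ptprz1 was not called (log2 -0.18, adjusted p = 0.0515). Gpr17, a receptor of committed precursors, rose (log2 0.35, SE 0.084) with 84.9, 93.8 and 93.0 CPM in EAE cords and 70.0, 62.8 and 80.2 CPM in Control cords, and none of the 10 was called in treated against EAE mice. Of 8 Schwann cell genes 7 were tested, of which Egr2 and Pmp22 rose in EAE, and the sum of the list was 232 to 246 CPM in EAE+EHP-101 cords, 237 to 261 CPM in EAE cords and 206 to 224 CPM in Control cords. Egr2 is also made by immune cells, and it fell in EAE+EHP-101 against EAE (log2 -1.93, SE 0.22, adjusted p = 0.00141). Egr2 and Pmp22 also rose in EAE+EHP-101 against Control, and Egr2 but not Pmp22 with the length trend removed. Of 10 neuronal markers 5 fell in EAE and 3 in EAE+EHP-101 against Control, with 0 called against EAE. Of 5 endothelial markers all fell in EAE and 0 were called in the other comparisons. Leukocyte and microglia markers were higher in EAE+EHP-101 than in Control in 10 of 10 genes. The sum of skeletal muscle markers was 40.4 CPM in Control replicate 1, against 2.13 to 3.08 CPM elsewhere. The part of these cells in the values of the 34 genes was not tested.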

How the data were processed

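Spinal cord RNA was sequenced after poly-A selection as stranded libraries, per the labels' protocols. The authors deposited raw read counts per gene, with a length, coordinates and strand for each, per the file headers. The submitters' processing notes name build mm10, featureCounts 1.6.1, HISAT2 2.1.0, Trimmomatic 0.36 and DESeq2 1.20.0, and the roles of these tools were not stated. How strand and multiply mapped reads were counted is not stated either, so genes with near-identical copies or overlaps are uncertain.

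Of 27179 identifiers, 25275 received a symbol from RefSeq GRCm38.p6. Coordinates come from the deposited table. In R 4.3.3, edgeR 4.0.16 kept 16749 genes (filterByExpr), scaled libraries by TMM and fitted 1 mean per group to all 9 libraries by quasi-likelihood. Adjusted p-values are Benjamini-Hochberg over the genes tested, and the SE was taken as the size of log2 fold over the root of F. CPM and RPKM use the scaled library sizes. To remove a length trend, each library's deviation was smoothed by lowess (span 0.3) on log length and entered as an offset. DESeq2 1.42.0, other scaling, no filter, only the groups compared, a replicate block and leaving out each library were further alternatives. Members given in full are those called in any comparison, with Mbp, Mog, Mag, Mobp, Cnp, Ugt8a, Fa2h, Aspa, Opalin and Enpp6 whatever their values. From each list up to 3 called genes of smallest p, and Gjc3, Myrf, Olig2 and Gpr17 among others, were eligible to be named, and a few of these are not reported here. Galc, Arsa, Psap, Gm2a and members singled out for 1 value or a left-out library were named after their values were seen. Members and lists were chosen with earlier results of these data known, and the classes were set by role. The p-values rest on the spread between 3 replicates a group, and the 3 groups share 1 estimate of it. The Control libraries, which spread most in the 34 genes, thus also enter the p-values of EAE+EHP-101 against EAE. Precision is limited by the number of replicates more than by depth.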

Additional observations from a re-analysis of the deposited data

How the results depend on the processing

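Medians over the 34 genes and over both classes moved by less than the spread between replicates under another scaling, no filter, DESeq2, only the groups compared, removal of the length trend and the replicate block. Counts of called members were less stable. Members lower in EAE against Control numbered 2, and 5 by DESeq2's Wald test, 1 with only these groups in the fit and 1 with the length trend removed. In that comparison 16.7% of all genes tested were called lower in the fit used above. For the other settings the genes called were not split by direction. In both directions they numbered 6191 in the fit used above, and 6153, 5390 and 4246 in these settings. In EAE+EHP-101 against EAE 2 members were called, 1 of them higher, against 4 and 3 by DESeq2 and 5 and 4 with only these groups in the fit. All genes called there numbered 877, against 1104 by DESeq2 and 921 with only these groups in the fit. In EAE+EHP-101 against Control the genes called numbered 3314, and 1553 with the length trend removed. As counted, Nfasc was at log2 -0.009 in EAE against Control and -0.0013 in EAE+EHP-101 against Control, not called. With the length trend removed it was called higher in both, at log2 0.32 and 0.23. Cntn2 in EAE against Control went from log2 -0.17 to 0.14, called in neither setting. Mobp in EAE against Control, Fa2h in EAE+EHP-101 against EAE, and Hapln2 and Opalin in EAE+EHP-101 against Control lost their calls under at least 1 of the block, the fit of only the groups compared and DESeq2's size factors. For these, and for the counts that moved, the cause was not tested.

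Replicate numbers did not pair the libraries: correlations of same-numbered deviations ran between -0.187 and 0.123. With a replicate block, 5345 genes were called in EAE against Control, 722 in EAE+EHP-101 against EAE and 2272 in EAE+EHP-101 against Control. Under the block 1 member was lower in EAE against Control, and in EAE+EHP-101 against EAE 1 was called and 0 were higher.

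Leaving out 1 library gave 4378 to 7095 genes called in EAE against Control, 370.0 to 1170.0 in EAE+EHP-101 against EAE and 629 to 3739 in EAE+EHP-101 against Control. Members called then numbered 9 to 16, 0 to 6 and 3 to 15 in these comparisons, or 12 to 37 calls in all against 21. Members higher numbered 7 to 14, 0 to 5 and 3 to 15, and members lower 1 to 3, 0 to 1 and 0. A count that changes this far with 1 library, with 3 replicates a group, limits how firmly any single call near the threshold can be read.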
